A study of Mus musculus with 12 samples.

Results

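The transcription factors Tcf7, Lef1, Bcl11b, Satb1, Tcf3, Tcf12, Ets1, Myb, Id2 and Id3 act in the T lineage and are described here across all libraries of the series. They were picked by name as known regulators of T cell development, not by a measured value, but with earlier results of these data known. They make up 10 of the 51826 genes listed in every file. Polyadenylated RNA of mouse thymus was sequenced in 12 libraries with paired reads of 75 bases. In 9 of them the thymus held a T cell acute lymphoblastic leukemia (T-ALL) from mice with a tetracycline-inducible interleukin-7 receptor alpha chain (IL-7Rα), and the titles of these libraries name doxycycline (Dox) induction. The other 3 are thymus of healthy controls, whose genotype label reads only "control". Both groups carry the strain label F5. The promoter that drives the inducible receptor, the ages and the dose and length of induction are not stated in the labels. The labels do not say that each library came from a separate animal, so each p-value speaks only of spread among these libraries, which may be technical.

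Tcf7 and Lef1 encode TCF-1 and LEF-1, related factors that bind DNA through a high mobility group box and recruit beta-catenin or corepressors. TCF-1 acts downstream of Notch in early thymic progenitors, and Bcl11b is needed for those cells to commit to the T lineage. Tcf3 and Tcf12 encode the E proteins E2A and HEB, which pair through helix-loop-helix domains, bind E-box motifs and drive receptor gene rearrangement and thymocyte maturation. Id2 and Id3 have the helix-loop-helix domain without a DNA-binding part, so they hold E proteins off DNA. Satb1 organizes thymocyte chromatin, Ets1 is an ETS-domain factor of thymocytes, and Myb is needed at several steps of thymocyte development.

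The libraries differed in composition, and the difference ran through the tumor group. Counts on 37 mitochondrial genes took 31.6% to 69.3% of tumors 1 to 6, 2.54% to 11.1% of tumors 7 to 9 and 0.0949% to 6.73% of the controls. The 76 genes of ribosomal proteins, made by every cell, took 0.329% to 1.26%, 0.0471% to 0.0726% and 0.103% to 0.251% of the same libraries. The median density of 1424 olfactory and vomeronasal receptors, not known as genes of thymocytes, was 0 to 0.405 CPM, counts scaled to a common library size, per kilobase across tumors 1 to 6. It was 0.585 to 0.749 across tumors 7 to 9 and 0.679 to 0.719 in the controls. Il7r itself spanned 33.2 to 512 CPM across tumors 1 to 6 and 5.02 to 5.62 across tumors 7 to 9, and averaged 2.91 ± 0.355 in the controls (SD, n = 3). Whether its reads came from the inducible form was not tested. The median of 14 T cell markers lay at 2.38 to 6.98 times the receptor-gene density in tumors 7 to 9 and at 2.03 to 4.78 times in the controls, with single markers as high as 34.4 times (Thy1 in tumor 8) and 26.9 times (Cd3g in control 1). At least 1 count fell on 46.9% to 93.75% of the receptor genes in tumors 1 to 6. The share was 98.8% to 99.3% in tumors 7 to 9 and 99.2% to 99.4% in the controls. Fewer T cells, less RNA per cell and library quality cannot be told apart in such bulk samples. Composition cannot be told apart from the group for tumors 1 to 6. Tumors 1 to 6 and tumors 7 to 9 are therefore given separately below, a division by composition and not by the study's labels.

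Lef1 (chromosome 3, 131110471 to 131224356, plus strand, GRCm38) is annotated with a long and a short form, and its sequences are shown because the forms differ by where transcription and translation start. The long form (transcripts Lef1-201, Lef1-202 and Lef1-204) starts with an exon of 1208 bases and its start codon lies at 131111472. The short form (Lef1-203) starts with an exon of 24 bases, 131112797 to 131112820, inside the first intron of the long form, with its start codon at 131112812. It has 66 codons fewer than Lef1-201. The coding starts below run 30 bases from the start codon, and capitals mark bases in each form's own first exon, all 30 in Lef1-201 and 9 in Lef1-203.
Lef1-201: ATGCCCCAACTTTCCGGAGGAGGCGGCGGG
Lef1-203: ATGGCAGGGgtggtcagacaagccccgtcc
The amino-terminal part that only the long form encodes is known to bind beta-catenin, so the short form is known as one that cannot.

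The genome upstream of the long form and at the start of the short form is given from RefSeq promoter windows of GRCm38.p6, each with 250 bases before and 50 after an annotated start on the plus strand. Capitals mark the E-box letters CANNTG, searched on both strands. The first window, chr3:131110073-131110372, surrounds a RefSeq start at 131110323, ends upstream of the start given above for the long form, 131110471, and holds 2 E-box matches. An overlapping RefSeq window, 131110047 to 131110346, holds 1 match and is not printed. The second window, chr3:131112541-131112840, contains the start of the short form and holds 3.
Lef1 long: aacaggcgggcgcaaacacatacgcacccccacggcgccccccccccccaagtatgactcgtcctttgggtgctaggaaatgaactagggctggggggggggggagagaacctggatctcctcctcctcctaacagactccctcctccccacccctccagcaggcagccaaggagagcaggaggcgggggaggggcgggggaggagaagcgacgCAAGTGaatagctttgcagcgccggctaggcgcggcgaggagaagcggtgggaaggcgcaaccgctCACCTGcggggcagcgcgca
Lef1 short: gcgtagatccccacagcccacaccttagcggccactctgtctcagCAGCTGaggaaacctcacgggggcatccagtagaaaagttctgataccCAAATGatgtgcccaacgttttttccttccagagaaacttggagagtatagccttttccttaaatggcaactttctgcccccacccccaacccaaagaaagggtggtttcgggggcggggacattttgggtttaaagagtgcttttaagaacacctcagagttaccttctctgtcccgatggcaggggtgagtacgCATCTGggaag
Neither window holds the TCF letters CTTTGAT or the ETS letters CGGAAG. Over all 32851 RefSeq promoter windows of this length, 72.3% hold CANNTG, 3.73% CTTTGAT and 16.9% CGGAAG. E-box letters are thus common at this length, and a match is a description of the letters, not a bound site.

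In tumors 1, 4, 5 and 6 most of the counts of coding Lef1 transcripts lay on the short form, in tumor 2 the forms were about equal, in tumor 3 fewer lay on the short form, and in the controls none did. The short form took 75.8%, 50.7%, 39.2%, 63.0%, 86.0% and 55.1% of these counts in tumors 1 to 6, on 628 to 2658 counts per library, with a 95% Wilson interval of 46.7% to 54.5% in tumor 2. Among tumors 7 to 9 it took 58.0% in tumor 7, on 99.2 counts, with a 95% Wilson interval of 47.7% to 66.8%, and 0% in tumors 8 and 9. In the controls it took 0% of 179, 69.2 and 56.4 counts. By counting error alone, at 3 counts, such zeros would still allow shares of up to 1.68%, 4.34% and 5.31%. For tumors 8 and 9 the same limit is 1.04% and 1.84%. These intervals and limits cover counting error alone, as the reads carry no molecular identifiers and are not independent molecules. They leave out background: per kilobase, Lef1 lay at only 3.63 to 7.06 times the receptor-gene density in the controls. In tumors 7 to 9 it lay at 5.34 to 12.9 times. The part of this background in the shares of the forms was not tested.

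**Figure D1:**
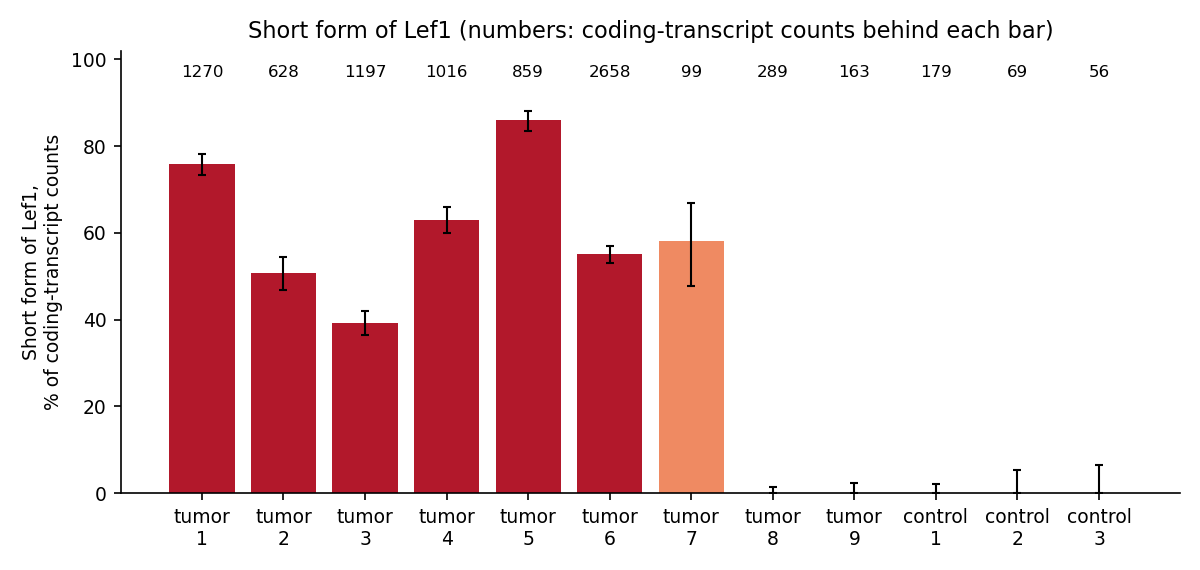
Percentage of counts on coding Lef1 transcripts that fell on the short form, Lef1-203, in each tumor and control library, with 95% Wilson intervals. Red bars are tumors 1 to 6, the orange bar is tumor 7, and the libraries without a bar, tumors 8 and 9 and the 3 controls, had 0%.

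The share of the long form averaged 52.5% ± 30.2 in the tumors and 100% ± 0 in the controls (SD, n = 9 and 3). The difference of -47.5 percentage points gave p = 0.0591 in a two-sided exact permutation test over 220 splits, where the smallest possible p is 0.00455. Without tumors 7 to 9 the difference was -61.6 points with an exact permutation p = 0.0119, the smallest value that 84 splits allow. With all Lef1 transcripts as the denominator the difference shrank to -5.35 points (exact permutation p = 0.595). Retained-intron transcripts held 53.8% to 66.2% of Lef1 counts in the controls, against 25.5% to 49.6% in tumors 1 to 6. Of those, Lef1-205 and Lef1-206 also begin at the internal start, and the controls had counts on both but none assigned to Lef1-203. Such counts cover whole transcripts of 3656 and 2066 bases, so they do not show reads at that start. An antisense gene, Gm43352 (131109026 to 131112090, minus strand), overlaps the first exon of the long form. It held 0 to 62.2 counts across tumors 1 to 6, 54.0 to 109 across tumors 7 to 9 and 53.1 to 66.4 in the controls. The sources used here do not state whether strand was used, so its reads and those of the long first exon cannot be told apart. Lef1-203 has 24 bases outside Lef1-201 and Lef1-201 has 1208 outside Lef1-203, and reads on the sequence that both hold do not tell the forms apart.

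Tcf7 (chromosome 11, 52252371 to 52283014, minus strand) had 2 quantified transcripts, Tcf7-201 and Tcf7-202, and the annotation gives both the same coding sequence of 909 bases. Whether this sequence is that of the long or the short form of TCF-1 was not tested. The quantified transcripts thus do not separate the forms, and the share of either has no value. The transcripts differ in their first exon and in a 3′ end that is 865 bases longer in Tcf7-201. Tcf7-201 held 76.6% to 97.2% of Tcf7 counts across tumors 1 to 6, 69.8% to 89.1% across tumors 7 to 9 and 96.6%, 28.7% and 79.9% in the controls. The controls thus reached from below all tumors to near the highest, on 84 to 210 counts each.

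The gene levels that follow are estimated counts summed over transcripts, in CPM with trimmed-mean (TMM) scaling factors. Tcf7 had 325, 299, 749, 567.8, 600 and 357 CPM in tumors 1 to 6, 8.71, 19.6 and 3.55 in tumors 7 to 9, and 6.95, 5.99 and 3.39 in the controls. Lef1 had 185, 112, 238, 239, 67.8 and 277 CPM in tumors 1 to 6, 11.8, 20.6 and 10.9 in tumors 7 to 9, and 13.1, 8.10 and 7.11 in the controls. All of tumors 1 to 6 lay above all controls for both genes, and tumors 7 to 9 overlapped the controls. The 2 factors did not follow each other within tumors 1 to 6: tumor 5 held the second highest Tcf7 and the lowest Lef1.

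Bcl11b (chromosome 12, 107910403 to 108003602, minus strand) had 87.5, 108, 209, 158, 204 and 210 CPM in tumors 1 to 6, 13.7, 16.2 and 9.00 in tumors 7 to 9, and 13.2, 5.74 and 5.53 in the controls. Satb1 (chromosome 17, 51736187 to 51833290, minus strand) had 304, 150, 691, 770, 792 and 517 CPM in tumors 1 to 6, 30.1, 28.9 and 13.0 in tumors 7 to 9, and 34.5, 9.95 and 9.53 in the controls. Tumors 1 and 2 were the lowest of the 6 for both genes, and control 1 was well above the other controls for both.

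Both E protein genes stood higher in each of tumors 1 to 6 than in every other library. Tcf12 (chromosome 9, 71842688 to 72111871, minus strand) had 208, 193, 302, 288, 315 and 398 CPM in tumors 1 to 6, 18.9, 16.8 and 14.3 in tumors 7 to 9, and 18.0, 12.1 and 13.7 in the controls. Tcf3 (chromosome 10, 80409514 to 80433647, minus strand) had 20.5, 19.8, 37.5, 31.9, 53.1 and 47.8 CPM in tumors 1 to 6, 2.65, 4.90 and 3.41 in tumors 7 to 9, and 5.69, 3.63 and 2.71 in the controls. Tumors 1 and 2 again held the lowest values of tumors 1 to 6 for both.
Part of the Tcf12 signal came from Tcf12-211, a transcript of 826 bases annotated for nonsense-mediated decay. It took 17.0% to 40.9% of Tcf12 counts across tumors 1 to 6, 0% to 2.73% across tumors 7 to 9 and 0.952% to 2.67% in the controls.

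Ets1 (chromosome 9, 32636221 to 32757820, plus strand) had 274, 232, 414, 318, 248 and 194 CPM in tumors 1 to 6, 11.1, 22.4 and 7.93 in tumors 7 to 9, and 8.73, 6.97 and 6.30 in the controls. Myb (chromosome 10, 21124935 to 21160984, minus strand) had 293, 199, 383, 334, 318 and 312 CPM in tumors 1 to 6, 15.2, 19.3 and 10.04 in tumors 7 to 9, and 11.7, 6.75 and 5.94 in the controls. Tumor 3 was the highest for both, and tumors 7 and 8 lay above all controls for both. Retained-intron transcripts held 17.5% (tumor 5) to 64.1% (tumor 3) of Myb counts across tumors 1 to 6, 35.9% to 56.6% across tumors 7 to 9 and 42.2% to 69.9% in the controls. The gene total of Myb thus joined transcripts whose proportions differed between tumors. For Ets1 the same shares were 4.59% to 7.86%, 23.3% to 47.6% and 40.7% to 62.8%.

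Of the inhibitors, Id2 stood above every control in each of tumors 1 to 6, and Id3 in each of them but tumor 5. Id2 (chromosome 12, 25093799 to 25097140, minus strand) had 14.1, 16.9, 7.52, 14.7, 13.8 and 3.69 CPM in tumors 1 to 6, 2.02, 1.65 and 1.41 in tumors 7 to 9, and 1.92, 1.53 and 1.62 in the controls. Id3 (chromosome 4, 136143497 to 136145755, plus strand) had 7.92, 4.17, 5.55, 5.58, 0.955 and 6.99 CPM in tumors 1 to 6, 1.44, 1.52 and 1.30 in tumors 7 to 9, and 2.32, 1.34 and 1.66 in the controls. Id2 was lowest in tumor 6 and Id3 in tumor 5, where Id3 lay below every control on 24 counts. Id2 is also made by NK and other innate lymphoid cells. The summed level of 10 markers of those cells was 432, 242, 72.4, 199, 164 and 23.7 CPM in tumors 1 to 6, lowest in the same 2 tumors as Id2, 29.1 to 38.2 in tumors 7 to 9 and 24.4 to 34.7 in the controls. One marker, the granzyme Gzma, held 18.6 to 404 CPM of the sums in tumors 1 to 6, and without it they were 5.09 to 48.9, with Ncr1 and Nkg7 at 0 to 3.41 and 0 to 2.04 CPM there. Single markers of these cells went opposite ways, from -1.58 (Klre1) to 6.31 (Gzma) in the edgeR log2 fold changes of tumors 1 to 6 over controls. Whether tumors 3 and 6 stay lowest without Gzma was not tested. The part of these cells in Id2 was not tested.

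**Figure D2:**
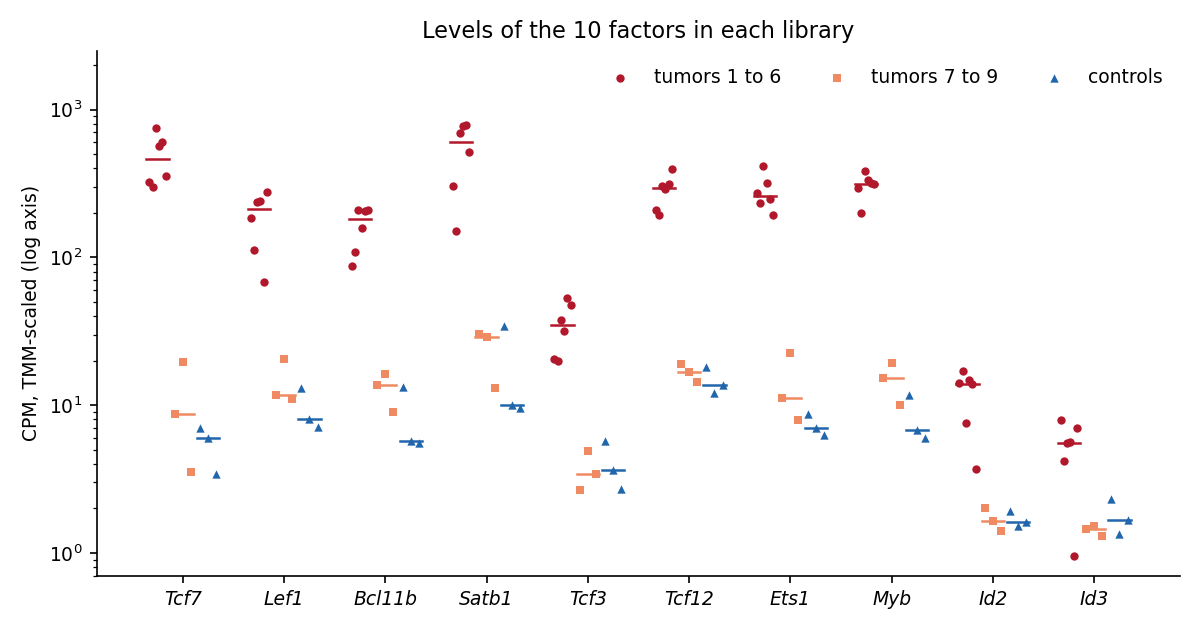
CPM of the 10 factors on a log axis, 1 point per library, with a line at each median. Tumors 1 to 6 (red circles) lay above the controls (blue triangles) for every factor except Id3, where tumor 5 lay below them, while tumors 7 to 9 (orange squares) overlapped the controls for every factor.

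For 9 of the 10 factors every one of tumors 1 to 6 lay above every control, which held for 20.3% of the 40521 genes tested, and 26.5% had every one of these tumors below every control. Id3 was the exception. For tumors 7 to 9 against the controls, 0 of the 10 factors were free of overlap in either direction, against 7.21% of all genes higher and 7.27% lower. For all 9 tumors together 0 of the 10 were free of overlap, against 1.62% of all genes higher and 3.09% lower. The controls set a floor to these comparisons. Counted per kilobase, Bcl11b lay at 1.61 to 3.70 times the receptor-gene median in tumors 7 to 9 and 1.03 to 2.61 times in the controls. Id2 lay at 1.36 to 2.04 and 1.55 to 2.05 times, and Satb1 at 4.02 to 11.4 and 3.06 to 11.7 times. A level near 1 on this scale is that of genes not known as thymocyte genes, and it does not measure the factor in healthy thymus.

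**Figure D3:**
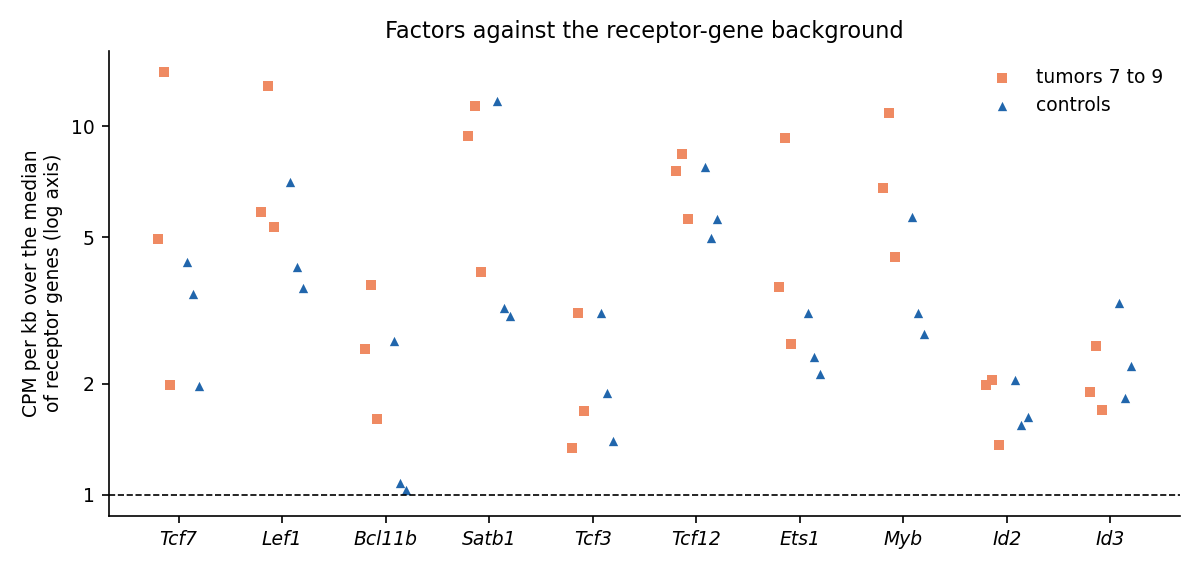
CPM per kilobase of each factor divided by the median of the receptor genes in the same library, on a log axis, for tumors 7 to 9 (orange squares) and the controls (blue triangles). The dashed line marks 1, and in the controls Bcl11b came closest to it, at 1.03 times.

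Over all 9 tumors and 3 controls no factor passed the test. By edgeR's quasi-likelihood test with Benjamini-Hochberg adjustment over 40521 genes, 0 of the 10 factors were called at an adjusted p below 0.05. Of all genes 0% were called higher and 0.00494% lower, and 7301 had p below 0.05 before adjustment. By contrast DESeq2 called 8 of the 10 higher, all but Id2 and Id3, where 10.1% of all genes were called higher and 0.131% lower. In the edgeR fit Tcf7 had the largest log2 fold change of the 10, 5.90 (SE 1.69, adjusted p = 0.128), and Id3 the smallest, 1.14 (SE 0.71, adjusted p = 0.494). The median was 3.78 over the 10 factors, -0.45 over all genes and 3.55 over the ribosomal protein genes.

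Without tumors 7 to 9, edgeR called 9 of the 10 factors higher and 0 lower, where 19.6% of all genes were called higher and 20.3% lower. The log2 fold changes of tumors 1 to 6 over controls were 6.17 ± 0.61 for Tcf7, 4.96 ± 0.48 for Myb, 4.93 ± 0.43 for Ets1 and 4.66 ± 0.77 for Satb1 (± SE). They were 4.07 ± 0.53 for Bcl11b, 4.02 ± 0.48 for Tcf12, 4.00 ± 0.53 for Lef1, 2.90 ± 0.50 for Tcf3 and 2.49 ± 0.49 for Id2. Their adjusted p ran from 1.99e-05 for Tcf7, Ets1 and Myb to 0.00145 for Id2. Id3 did not pass, at 1.23 ± 0.57 with adjusted p = 0.0915. A refit without tumor 5, added after the data were seen, gave 1.44 (edgeR adjusted p = 0.0135). It left out the tumor where Id3 lay below every control, so it is no separate support. The median over the 10 factors was 4.05, that of ribosomal protein genes 3.81 and that of all genes -1.29.

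Set against ribosomal protein messenger RNA, 1 of these 9 calls remained. With ribosomal protein counts as the library size and without tumors 7 to 9, Tcf7 alone was called higher among the 10, with a log2 fold change of 1.99 (SE 0.57, edgeR adjusted p = 0.00393), where 0.467% of all genes were called higher and 92.1% lower. Tcf3, Id2 and Id3 were called lower there, at -1.44, -1.79 and -2.95. The other 6 lay between -0.28 (Bcl11b) and 0.77 (Ets1) and did not pass. In tumors 7 to 9 against the controls 0 of the 10 were called by edgeR, against 0.0247% of all genes in each direction, with Ets1 (0.90) and Myb (0.86) at unadjusted p of 0.0266 and 0.0193. Id3 (-0.33), Tcf3 (-0.14) and Id2 (-0.02) lay below 0 in that comparison.

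**Figure D4:**
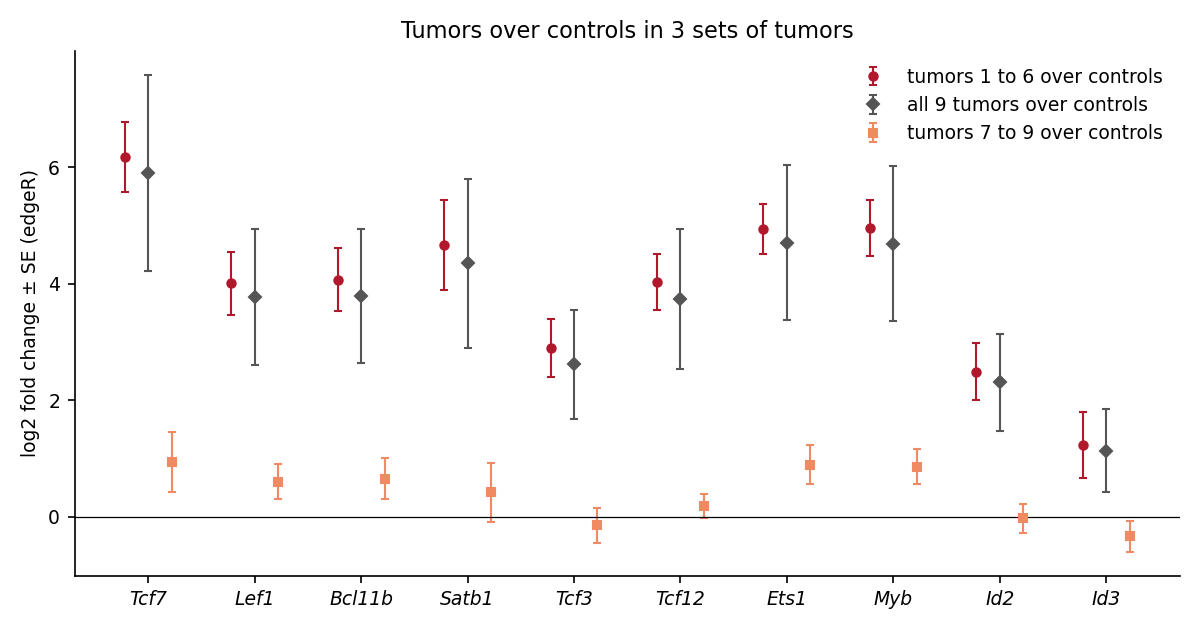
edgeR log2 fold changes with standard errors for tumors 1 to 6 (red circles), all 9 tumors (grey diamonds) and tumors 7 to 9 (orange squares) over the 3 controls. Values of tumors 1 to 6 ran from 1.23 for Id3 to 6.17 for Tcf7, and those of tumors 7 to 9 from -0.33 to 0.95.

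Within tumors 1 to 6 the factors differed in how evenly they were held. With the main TMM scaling Myb had the lowest coefficient of variation (CV), 19.8%, and a highest tumor 1.92 times the lowest, against 2.13 times for Ets1. This order depended on the scaling: Ets1 had a smaller ratio than Myb under 5 of the 6 other scalings, with 1.90 against 2.47 with TMM factors over tumors 1 to 6 alone and 2.16 against 4.64 in the deposited TPM. The CV was 26.5% for Tcf12, 27.7% for Ets1, 33.4% for Bcl11b, 37.8% for Tcf7 and 39.3% for Tcf3. Id2 (42.9%), Lef1 (43.7%), Id3 (47.1%) and Satb1 (49.1%) varied most, with the highest tumor 4.59, 4.08, 8.29 and 5.28 times the lowest. Of the 10 factors 5 lay below the median CV of 38.6% of the 11474 genes with at least 5 CPM on average in these tumors, and the median of the 10 was also 38.6%. Myb lay at percentile 8.08 of those genes, counted from the most even.

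The tumors departed from the medians in different factors. Tumor 2 lay below the median for 9 of the 10, most for Satb1, at -2.01 on the log2 scale, and above it only for Id2 (0.28). Tumor 2 also held the highest summed markers of macrophages and of neutrophils, 178 and 270 CPM. Single markers went opposite ways in the edgeR log2 fold changes of tumors 1 to 6 over controls. Those of macrophages ran from -1.01 (Cd14) to 5.17 (Lyz2) and those of neutrophils from -1.28 (Elane) to 5.26 (S100a9). The part of these cells in the low Satb1 of tumor 2 was not tested. Tumor 1 was low for Bcl11b (-1.05) and Satb1 (-0.99) and highest for Id3 (0.51). Tumor 5 was low for Lef1 (-1.64) and Id3 (-2.54) and highest for Tcf3 (0.62), and tumor 6 was low for Id2 (-1.92) and highest for Tcf12 (0.43). Tumor 4 stayed within 0.35 of the median for all 10. The scaling bears on this: with TMM factors taken over tumors 1 to 6 alone, Satb1 had a ratio of 8.17 and Bcl11b of 3.67 in place of 2.40. Tumor 2 kept the lowest Satb1 and tumor 5 the lowest Id3 under each of the 6 other scalings, while with library totals and in the deposited TPM Lef1 was lowest in tumor 2, Id2 lowest in tumor 3 and Tcf3 highest in tumor 6. Id3 was highest in tumor 6 under these and with TMM over tumors 1 to 6 alone, Tcf12 was highest in tumor 5 with relative log expression (RLE) factors, and Bcl11b was lowest in tumor 2 in the deposited TPM.

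**Figure D5:**
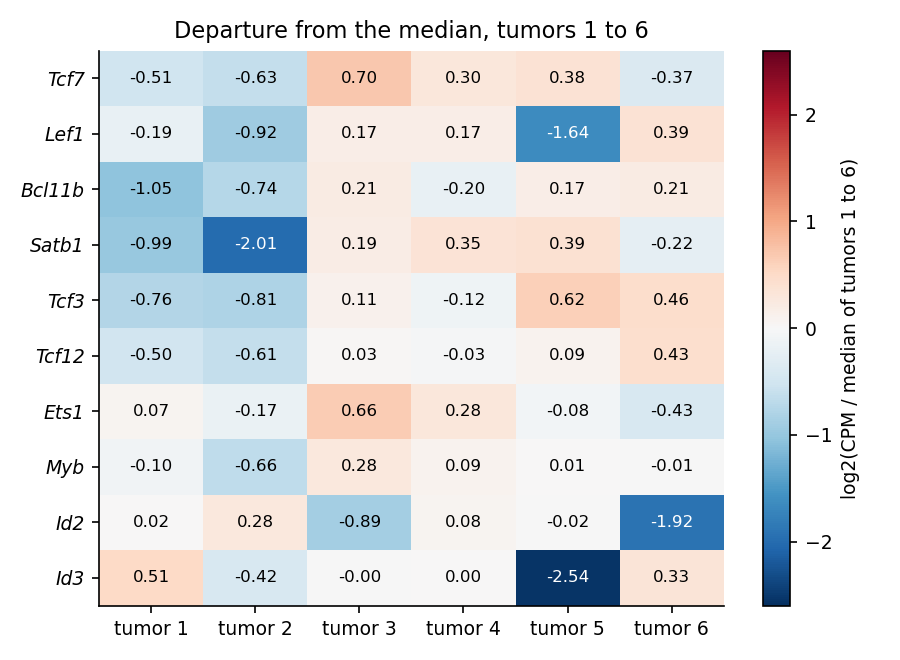
log2 of each factor's CPM over its own median across tumors 1 to 6, with tumors in columns and factors in rows. The values furthest below the median were Id3 in tumor 5 (-2.54), Satb1 in tumor 2 (-2.01) and Id2 in tumor 6 (-1.92).

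For Id3, genes were also compared by their log2 CPM deviations from their own mean over tumors 1 to 6, not from the median used above. Of 9478 protein-coding genes with at least 5 CPM on average, the 3 nearest to Id3 were Map3k5, Cd1d1 and Zfp710. Their largest differences from Id3 over the 6 tumors were 0.37, 0.39 and 0.39 on the log2 scale. Each was lowest in tumor 5, with 1.79 CPM of Map3k5, 1.31 of Cd1d1 and 3.86 of Zfp710. The choice by likeness to Id3 fixed this in advance, so it is no separate observation.

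To compare levels between genes, the deposited TPM values, which count per transcript length, were used within tumors 1 to 6. By median TPM the order was Satb1 (47.8), Tcf7 (40.0), Tcf12 (32.6), Myb (23.2), Ets1 (18.1), Lef1 (13.95), Bcl11b (4.78), Tcf3 (2.52), Id2 (2.28) and Id3 (1.28). In all 6 tumors Tcf12 lay above Myb, Lef1 above Bcl11b and Bcl11b above Tcf3 in this order, so these 3 pairs of neighbours kept their order in every one of them. Bcl11b was still not clear of the inhibitors: it had 2.68 TPM in tumor 1, below Id2 (2.99) and Id3 (3.36), and 2.57 in tumor 2, below Id2 (2.64). Satb1 lay above Tcf7 in 4 of 6 tumors, Tcf7 above Tcf12 in 4, Myb above Ets1 in 5, Ets1 above Lef1 in 4, Tcf3 above Id2 in 3 and Id2 above Id3 in 4, so these neighbours were not separated. Counting protein-coding transcripts only, Tcf12 had a median of 6.45 TPM and took place 6, and Tcf12-211 held 43.3% to 77.6% of its TPM. Tcf7 then led with 40.0 and Satb1 followed with 33.9.

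The balance of E proteins against their inhibitors was taken as the TPM of Tcf3 and Tcf12 over that of Id2 and Id3 in the same library. It was 5.92, 4.93, 17.7, 10.2, 19.2 and 16.6 in tumors 1 to 6, 3.55, 2.75 and 2.65 in tumors 7 to 9, and 2.67, 2.07 and 1.35 in the controls. All of tumors 1 to 6 lay above the other 6 libraries on this measure. With the receptor-gene background subtracted, tumors 1 and 2 had 3.97 and 4.08, below tumor 9 at 5.05. With protein-coding transcripts only it was 1.65, 2.27, 6.52, 2.94, 4.32 and 11.9 in tumors 1 to 6, 1.77, 1.93 and 2.68 in tumors 7 to 9, and 1.95, 1.58 and 1.47 in the controls, and tumors 1 and 2 then lay below tumor 9, and tumor 1 also below tumors 7 and 8 and control 1. Id2 over Id3 ran from 0.323 in tumor 6 to 10.2 in tumor 5, counting all transcripts. With protein-coding transcripts only, Id2 lay above Id3 in each of tumors 1 to 6, at 0.994 to 3.72 against 0.202 to 0.958 TPM.

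Related genes were taken from 5 lists, and none of their members passed in the edgeR fit of all libraries. In the fit without tumors 7 to 9, whose background of calls is given above, 8 of 18 TCF/LEF partners and other TCF genes were higher and 0 lower, with a median log2 fold change of 1.24. Csnk1a1, a kinase that primes beta-catenin for destruction, spanned 113 to 373 CPM across tumors 1 to 6, 7.70 to 15.9 across tumors 7 to 9 and 9.94 ± 3.74 in the controls (SD, n = 3). Apc, a scaffold of the same destruction complex, lay at 75.2 to 183, 9.54 to 15.3 and 11.3 ± 2.42 CPM. Ctnnb1, beta-catenin itself, lay at 87.8 to 153, 3.95 to 7.05 and 8.92 ± 3.96 CPM.

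Of 13 E protein partners and inhibitors 4 were higher and 0 lower, with a median of 0.53. Lmo4, a LIM-only adaptor, spanned 29.01 to 168 CPM across tumors 1 to 6, 2.38 to 3.04 across tumors 7 to 9 and 2.59 ± 0.943 in the controls (SD, n = 3). Ldb1, which bridges LIM proteins, lay at 31.1 to 87.4, 2.19 to 6.72 and 2.58 ± 0.325 CPM. The third E protein gene, Tcf4, did not pass (0.53, edgeR adjusted p = 0.456) and stood at 125 CPM in tumor 6, against 17.6 to 28.8 in tumors 1 to 5 and 25.1 ± 2.22 in the controls. In CPM tumor 6 was also the highest for Tcf12 and the lowest for Id2.
Of 14 E protein target genes 9 were higher and 0 lower, with a median of 2.89. Dntt, the enzyme of untemplated bases at receptor joints, lay at 66.5 to 762 CPM in tumors 1 to 6, and Notch1, the receptor upstream of Tcf7 in progenitors, at 34.0 to 807.

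Of 16 ETS, RUNX and MYB relatives 12 were higher and 1 lower, with a median of 2.75. Runx1, a partner of Ets1 on T cell enhancers, spanned 107 to 228 CPM across tumors 1 to 6, 10.2 to 12.5 across tumors 7 to 9 and 8.08 ± 1.84 in the controls (SD, n = 3). The ETS genes Elf1 and Elf4 lay at 52.9 to 145 and 56.3 to 111 CPM in tumors 1 to 6. Of 24 other T lineage factors 13 were higher and 0 lower, with a median of 1.94. Zeb1, a repressor needed for normal thymocyte numbers, lay at 82.3 to 727 CPM in tumors 1 to 6, highest in tumor 5, and 10.4 ± 1.498 in the controls. Nfatc3 and Tox, factors of thymocyte selection, lay at 83.7 to 204 and 43.6 to 259 CPM in tumors 1 to 6. All 14 T cell markers were higher in the same fit, with a median of 4.08, close to the 4.05 of the 10 factors, and ribosomal protein genes had 3.81. With ribosomal protein counts as the library size, 1 of the 14 E protein targets and 0 members of the 4 other lists of related genes were called higher.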

How the data were processed

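Per the file headers, the authors gave kallisto estimated counts per transcript, with transcript lengths. The deposited files also hold TPM, which mitochondrial counts dilute in tumors 1 to 6. Tools were kallisto and FastQC and the build mm10, per the submitters' processing notes, with no versions stated. Estimated counts were summed per gene and rounded; gene models came from GENCODE M21 (51633 genes matched by identifier). Library totals were 11617558 to 34769679 in tumors and 8132932 to 12019670 in controls, and 1 count stood for 0.0331 to 0.136 CPM after scaling. Tests were edgeR 4.0.16 (R 4.3.3, quasi-likelihood, TMM, filterByExpr) on all 12 libraries, and an exact permutation test for form shares; the edgeR step was tested on simulated data. DESeq2 1.42.0, other scalings, filters, left-out libraries and a replicate block were alternatives.
The members and lists were chosen with earlier results of these data known. The rule named all 10 factors, the 3 genes of highest mean CPM in tumors 1 to 6 in each list of related genes, and the 3 genes nearest to Id3. Marker lists of other cells are given in the closing section.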

Additional observations from a re-analysis of the deposited data

Results flagged for a closer look

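Lef1 in tumor 6 stood apart from the other tumors on the TPM scale. It held 48.7 TPM there, and the nearest other tumor held 17.2, a gap of 0.683 of the range of the 9 tumors, past the 95% limit of Dixon's test for 9 values. Mitochondrial counts, which lower TPM, took 31.6% of tumor 6 and 41.3% to 69.3% of tumors 1 to 5. In CPM Lef1 was 277 in tumor 6 and 239 in tumor 4, and it did not stand apart. Chance passes this limit in about 1 of 20 groups, and 24 were looked at.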

How the results depend on the processing

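Of 350 refits of the members' log2 fold changes, 216 kept direction and side of the threshold, 119 passed it and 15 changed sign. Over all 12 libraries 0 genes were higher and 2 lower, and 0 members were called, also with RLE factors, library totals or no low-count filter. The stricter filter and ribosomal protein scaling gave 0 lower. DESeq2 gave 4084 higher, 53 lower and 8 members. Background as covariate gave 2 higher, 2 lower and 0 members. Without tumors 7 to 9 there were 7562 higher, 7825 lower and 9 members, and tumors 7 to 9 alone gave 9, 9 and 0. Without tumors 7 to 9 (settings added after the data were seen), totals without mitochondrial genes gave 4650, 22033 and 9, ribosomal protein scaling 180, 35503 and 4, and leaving out 1 more library 6128 to 7845, 2539 to 11371 and 9 to 10. Leaving out 1 of all 12 libraries gave 0 higher, 0 to 3 lower and 0 members.

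The sign changed with ribosomal protein scaling for Tcf3 (-0.51), Id2 (-0.54) and Id3 (-1.06), and without tumors 7 to 9 also for Lef1 (-0.17), Bcl11b (-0.28), Tcf12 (-0.24), Tcf3 (-1.44), Id2 (-1.79) and Id3 (-2.95). It changed for Id2 (-0.12) and Id3 (-1.02) with library totals, for Id3 (-0.19) with totals without mitochondrial genes, and for Tcf3 (-0.14), Id2 (-0.0196) and Id3 (-0.33) in tumors 7 to 9 alone. The cause was not tested.

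With the replicate block, 8377 genes were higher, 2310 lower and 10 members called, but controls 1 to 3 and tumors 1 to 3 did not pair: same-numbered deviations correlated at 0.106, 0.0840 and -0.149.

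The Lef1 long-form difference was -61.6 points without tumors 7 to 9 (exact permutation p = 0.0119), -54.3 by TPM (p = 0.05) and -42.7 to -53.5 with 1 library left out (p = 0.0242, without tumor 8 or 9, to 0.127). Tcf7 gave no share under any alternative. The median E protein to Id ratio of 13.4 was 7.92 with background subtracted and 3.63 on protein-coding transcripts. Depth limits Id3, on 24 to 110 counts per library, and the Lef1 forms of the controls.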

Other observations

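Markers of other cells were summed in CPM, given for tumors 1 to 6, tumors 7 to 9 and controls in that order. The 8 B cell markers came to 6.87 to 35.7, 43.8 to 53.4 and 42.0 to 49.8, and the 7 dendritic cell markers to 8.33 to 37.3, 31.5 to 42.5 and 29.96 to 31.7. The 10 macrophage markers came to 31.5 to 178, 18.8 to 20.8 and 18.6 to 22.2, highest in tumor 2. The 7 neutrophil markers came to 1.72 to 270, 9.94 to 11.5 and 8.00 to 10.9, also highest in tumor 2, the tumor with the lowest Satb1. The 9 thymic epithelium markers came to 27.6 to 49.7, 37.0 to 44.2 and 31.3 to 40.2, and the 7 erythroid markers to 3.03 to 11.8, 6.17 to 8.33 and 7.63 to 19.3. The 7 fibroblast markers came to 55.0 to 271, 51.8 to 57.0 and 38.9 to 47.7. In the edgeR fit without tumors 7 to 9, single fibroblast markers ran from -1.54 (Pdgfra) to 3.48 (Pdgfrb) on the log2 scale. Single macrophage and neutrophil markers also went opposite ways in that fit, as given above. The 6 endothelium markers came to 178 to 1152, 95.7 to 161 and 49.5 to 92.5, of which Pecam1 alone held 175 to 1150, 60.8 to 129 and 11.7 to 58.6. The part of these cells in the levels of the 10 factors was not tested.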
